A study of Mus musculus with 2 samples.

Results

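The nuclear genes of oxidative phosphorylation were examined in a map of H3K4me3, histone H3 trimethylated at lysine 4, a mark of active and poised promoters. The map was made by chromatin immunoprecipitation and sequencing (ChIP-seq) of E14TG2a.4, an untreated male mouse embryonic stem cell line of strain 129/Ola, in 1 group of 2 biological replicates. The line is 1 established line and both replicates carry the same donor label, so the spread between them is not a spread between animals. With 1 group, no difference between conditions could be tested, and 2 replicates are too few for a test of their own. The genes were the nuclear protein-coding genes of the mm10 RefSeq gene table whose symbols start with Nduf, Uqcr, Atp5 or Cox4 to Cox8, or are Sdha, Sdhb, Sdhc or Sdhd. This rule, which uses no measured value, found 96 genes among 21532 protein-coding genes with a known strand.

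Oxidative phosphorylation is the process by which mitochondria turn the energy of electrons from food into ATP. Complex I takes electrons from NADH and complex II takes them from succinate. Coenzyme Q carries them to complex III, cytochrome c carries them on to complex IV, and complex IV passes them to oxygen. Complexes I, III and IV pump protons across the inner membrane, and complex V, the ATP synthase, uses their return to make ATP. A small set of subunits is encoded in mitochondrial DNA, and all others are nuclear genes that have to be transcribed together from many chromosomes. Several subunits of complex IV exist as a ubiquitous form and as a form of heart, skeletal muscle, lung or testis. Embryonic stem cells are known to rely heavily on glycolysis while keeping a functional respiratory chain.

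Each of the 2 replicates had its own peak list on mm10, with 86781 and 83750 peaks, and the authors' replicated list held 62128. Sequencing depth was unknown from the sources used here. Defining stem cell genes carried the mark: 6 of 7 markers had a promoter peak, with a median signal of 60.1, and Esrrb had none at its 5′ end. Markers of other cell types were weak or unmarked. Fibroblast markers reached 13.7 to 23.4 in 3 of 5 genes, and primitive endoderm markers reached 9.49 to 14.2 in 3 of 4. Muscle and heart markers reached 2.84 to 7.43 in 3 of 7 genes, with Ckm, Actc1, Myh6 and Myh7 unmarked, and all 5 testis markers were unmarked. The signal is the authors' ratio of ChIP over control at a peak, so a lower value in fewer modified cells and one in cells with less of the mark each cannot be told apart.

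Of the 96 oxidative phosphorylation genes, 90 (93.8%) had a replicated H3K4me3 peak within 1 kb of their 5′ end, the annotated start of the gene. Among all 21532 coding genes the share was 66.6%. The same 96 calls were made from the list of replicate 1, where 66.9% of all genes were marked, and from the list of replicate 2, where 66.8% were. The unmarked genes were Cox5a, Cox6a2, Cox7a2, Cox7b2, Ndufb4b and Ndufb4c. Cox5a and Cox7a2 had peaks at a transcript start inside the gene. With any RefSeq transcript start counted as a promoter, 92 of the 96 were marked, against 68.6% of all genes. The pooled list on mm9 with any GENCODE vM1 transcription start marked 91, against 68.4%. When the peak had to cover the 5′ end itself, 89 were marked against 60.1%, and the gene lost was Atp5g3, a c subunit gene of ATP synthase. A stricter q-value under 1e-05 marked the same 90, against 66.2%, as did a window of 500 bp, against 65.0%, the pooled list, against 68.0%, and a window of 2 kb, against 68.6%.

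On mm10 the marked genes had strong peaks of ordinary width. Their median signal was 61.0, with an interquartile range of 51.0 to 67.6 and a full range from 4.17 to 78.5. The median of all 14339 marked coding genes was 43.0, and 77 of the 90 lay above it. In the replicates' own lists the median was 53.7 and 52.7, a mean of 53.2 ± 0.694 (SD, n = 2), against 37.5 ± 1.34 for all marked genes. The 2 replicate medians of the oxidative phosphorylation genes lay above both replicate medians of all genes. Each SD is between 2 replicate medians of the same genes and is not a spread between genes. It therefore gives no test of the difference between the gene sets. Over all marked genes the interquartile range was 23.4 to 57.7 in the replicated list. Peaks separated by less than 1 kb were counted as 1 domain. The median domain width was 2718.5 bp against 2426 bp for all marked genes, and 57 of the 90 genes were wider than that median. The width in the replicates was 2613.5 and 2684 bp. In the pooled mm9 list, whose ratio has no stated denominator, the gap in signal was smaller, with a median of 17.6 against 15.9 for all marked genes. Of the 89 genes marked on both builds, 58 lay above that mm9 median.

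The order of the genes by signal held little between the mm10 and mm9 lists, and outside the tissue isoforms it did not hold. Across those 89 genes Spearman's rho of mm10 and mm9 signal was 0.19, and across the 83 that are not tissue isoforms it was 0.02, against 0.44 over 13662 coding genes. These are descriptions across genes of the same libraries. Ranks of single genes given here are therefore those of the mm10 lists.

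**Figure D1:**
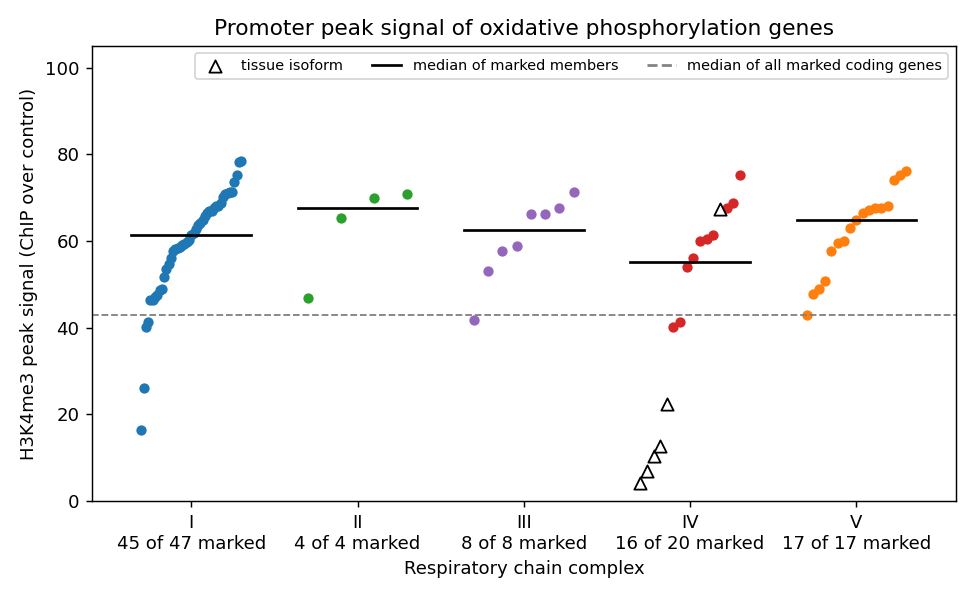
H3K4me3 signal at the promoter (vertical axis, the authors' ratio of ChIP over control in the replicated list) of each marked gene, by complex (horizontal axis, with the number marked). Bars are medians of the marked genes of a complex, the dashed line at 43.0 is the median of all marked coding genes, and open triangles are tissue isoforms, 5 of which lie at 22.3 or lower.

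Promoter sequences were at hand for 78 of the 96 genes, as 300 bp windows of RefSeq on GRCm38.p6 that run from 250 bp before a transcript start to 50 bp into the transcript. No entry was found for 18, among them Cox6c, Uqcrq, Atp5a1, Atp5mpl, Ndufa2, Cox4i2, Uqcrc2, Ndufb9, Uqcrb, Ndufs1, Ndufb4c, Cox4i1, Cox8c, Cox6a2, Ndufa4l2, Ndufaf6 and Sdhc. The windows were searched on both strands for the letters of 4 motifs that are known from genes of mitochondrial proteins. GCGC and TGCGC with any 1 base between them stand for nuclear respiratory factor NRF1 (GCGCA and GCGC on the other strand), CCGGAAG stands for ETS factors such as GABP (CTTCCGG), AAGATGGC for YY1 (GCCATCTT) and TGACGTCA for CREB-type factors. No match of one motif overlapped a match of another. The site GCGCATGCGC matches the NRF1 pattern on both strands at once and counts once per gene.

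At least 1 of the 4 motifs was present in 43 of the 78 genes, or 55.1%. The share was 21.2% over all 17491 promoters with an entry and 29.6% over the 11483 of them that were marked. NRF1 letters were in 18 genes (23.1%, against 6.66% of all promoters and 9.73% of marked ones). ETS letters were also in 18 (23.1%, against 11.9% and 16.8%). YY1 letters were in 10 (12.8%, against 3.21% and 4.21%), 8 of them complex I genes. Complex I made up 41 of the 78 genes, and 19.5% of its genes had YY1 letters. CREB-type letters were in 4 (5.13%, against 2.33% and 3.22%). The motifs sat at different places. The median of 24 distinct NRF1 sites began 46 bp upstream of the start, while 9 of the 10 YY1 matches began downstream of it, at a median of 23.5 bp into the transcript.

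The next 6 stretches show how the upstream motifs were arranged. Each covers the 150 bases before the start, 5′ to 3′ on the gene's strand, and capitals mark the motif letters.
Sdha: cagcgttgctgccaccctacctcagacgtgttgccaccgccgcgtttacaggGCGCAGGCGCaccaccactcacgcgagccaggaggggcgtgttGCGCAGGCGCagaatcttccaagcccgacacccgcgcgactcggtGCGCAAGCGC
Sdhd: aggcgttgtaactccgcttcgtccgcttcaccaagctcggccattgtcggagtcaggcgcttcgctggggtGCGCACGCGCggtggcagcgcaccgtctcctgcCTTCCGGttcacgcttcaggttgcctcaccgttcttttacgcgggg
Cox6a1: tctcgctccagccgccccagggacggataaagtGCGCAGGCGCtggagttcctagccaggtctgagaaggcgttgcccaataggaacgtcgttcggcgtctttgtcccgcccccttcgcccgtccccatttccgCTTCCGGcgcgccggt
Ndufs6: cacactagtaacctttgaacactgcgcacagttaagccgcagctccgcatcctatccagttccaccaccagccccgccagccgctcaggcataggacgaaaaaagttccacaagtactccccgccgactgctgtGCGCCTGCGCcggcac
Uqcrfs1: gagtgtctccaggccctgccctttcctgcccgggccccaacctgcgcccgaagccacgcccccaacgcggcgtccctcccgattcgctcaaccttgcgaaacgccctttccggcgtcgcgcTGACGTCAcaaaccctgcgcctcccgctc
Ndufa11: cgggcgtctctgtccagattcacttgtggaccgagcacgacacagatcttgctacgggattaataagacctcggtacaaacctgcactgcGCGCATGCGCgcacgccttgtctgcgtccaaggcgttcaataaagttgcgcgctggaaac
Their positions on GRCm38.p6 are Sdha chr13:74350241-74350390 on the minus strand, Sdhd chr9:50603850-50603999 on the minus strand, Cox6a1 chr5:115348959-115349108 on the minus strand, Ndufs6 chr13:73328483-73328632 on the minus strand, Uqcrfs1 chr13:30545317-30545466 on the minus strand and Ndufa11 chr17:56717612-56717761 on the plus strand. The Sdha stretch holds 3 NRF1 sites. Sdhd and Cox6a1 each pair an NRF1 site with an ETS site nearer the start. Uqcrfs1 has the CREB-type site, and Ndufs6 and Ndufa11 have a single NRF1 site, which in Ndufa11 is the one that reads alike on both strands.

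YY1 letters lay just inside the transcript. In the 5 stretches of 30 bases that follow, from 15 to 44 bases after the start base, capitals mark AAGATGGC, which contains the letters of a start codon. They are shown because the match lies at a similar distance in genes on 5 chromosomes.
Ndufa9: aggcattgtgggagAAGATGGCggccgccg
Ndufc1: gcggaacAAGATGGCgccgtccgtagtgct
Ndufs4: tcctggcgtttgcctacaggAAGATGGCgg
Ndufs7: gccgaggccAAGATGGCggcgctggcgggt
Atp5j2: aggacttcAAGATGGCgtcactcggtgagt
They lie at Ndufa9 chr6:126849100-126849129 on the minus strand, Ndufc1 chr3:51408911-51408940 on the minus strand, Ndufs4 chr13:114388050-114388079 on the minus strand, Ndufs7 chr10:80249464-80249493 on the plus strand and Atp5j2 chr5:145191497-145191526 on the minus strand. The match began 29 bp into the transcript in Ndufa9, 22 bp in Ndufc1, 35 bp in Ndufs4, 24 bp in Ndufs7 and 23 bp in Atp5j2. All 5 genes had a strong promoter peak, from 64.3 in Ndufs4 to 73.6 in Ndufs7. They were picked from the 10 genes with YY1 letters after the values were seen. Of those not printed, Ndufa3, with its match also 22 bp into the transcript, had a lower signal of 59.1, and Ndufb8 had 58.1. Ndufs6, Ndufaf8 and Atp5pb had 66.9, 66.6 and 74.0. A match is a description of letters and says nothing of binding in these cells.

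Complex I, the NADH dehydrogenase, was marked at 45 of its 47 genes, with a median signal of 61.4 (53.8 and 53.4 in the replicates) and a median width of 2675 bp. All 7 core subunits, which carry the flavin and the iron-sulfur clusters, were marked at a median of 68.0. The 30 accessory subunits were all marked at a median of 59.5, and the 8 assembly factors Ndufaf1 to Ndufaf8 at 64.3. The 2 unmarked genes were Ndufb4b and Ndufb4c, copies of the accessory subunit gene Ndufb4.

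The strongest complex I promoter was that of Ndufs1, the largest core subunit and an iron-sulfur protein, at 78.5 in the replicated list, 68.3 in replicate 1 and 69.7 in replicate 2. Ndufaf7, a methyltransferase that acts in complex I assembly, followed at 78.2, with 70.2 and 66.8. They lay at percentiles 99.1 and 99.0 of all marked genes. The replicates changed places between them, so their order was not resolved. On mm9 Ndufs1 had 27.4, while Ndufaf7 had 16.9, below the median of 17.6 of the oxidative phosphorylation genes there.

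Ndufa1, an accessory subunit of the membrane arm encoded on the X chromosome, was among the weakest at 26.2, with 23.2 and 23.6 in the replicates, in a peak it shares with Rnf113a1 on the other strand. It lay below every other accessory subunit of complex I in the replicated list and in each replicate, but on mm9 it had 32.1, above the median of 17.6. Ndufab1, the acyl carrier protein gene, was the next of these at 40.1, with 37.7 and 32.9.

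Ndufb4 itself had a signal of 57.8, with 48.7 and 52.1 in the replicates. Its copies were short genes with no peak at their start. Ndufb4b spans 471 bp, and its nearest replicated peak lay 2269 bp away with a signal of 3.88. Ndufb4c spans 485 bp, and its nearest peak lay 25926 bp away with a signal of 2.73. How far these copies share reads with Ndufb4 was not tested.

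Complex II, the succinate dehydrogenase, was marked at all 4 genes with a median of 67.7. Sdhb, the iron-sulfur subunit, had 70.9, with 59.7 and 49.4 in the replicates. Sdhd, a membrane anchor, had 70.0, with 58.7 and 64.3. Sdhc, the other anchor, had 65.4, with 56.8 and 57.7. The replicate values of Sdhb spanned a wide interval that left its place among these 3 unresolved, while Sdhd was above Sdhc in each replicate. Sdha, the flavoprotein that oxidises succinate, was lower at 46.9, with 40.7 and 40.4, below both replicate values of each of the others. The mm9 list turned this order, with 18.1 at Sdha against 15.1 at Sdhb and 15.9 at Sdhc, and 22.7 at Sdhd. It is also the gene with 3 NRF1 sites in the stretch printed above.

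Complex III, the cytochrome bc1 complex, was marked at all 8 nuclear genes of the rule, with a median of 62.5 (55.9 and 53.6 in the replicates). Its highest signals were at Uqcrq, a small subunit bound to cytochrome b, at 71.3 (63.9 and 64.1), and at Uqcr11, the smallest subunit, at 67.7 (59.2 and 59.6). Uqcrfs1, the Rieske iron-sulfur protein, had 66.1, with 58.0 and 57.8. The lowest were Uqcr10, another small subunit, at 41.8 (44.0 and 41.1), and Uqcrh, the hinge protein that helps cytochrome c bind, at 53.1 (53.8 and 42.6). Uqcr10 was below Uqcrh in each replicate, but the ranges of the 2 genes overlapped. On mm9 Uqcr11 was instead the lowest of the 8, at 11.6.

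Complex V was marked at all 17 genes, with a median of 64.8 (53.8 and 56.2 in the replicates) and a median width of 3614 bp. That was the largest of the 5 complexes in the replicated list, but in replicate 2 complex II was wider (3486.5 against 3353 bp). The F1 head, which makes ATP, had a median width of 4455 bp over 5 genes, and the peripheral stalk, which holds the head still, 4926.5 bp over 4. The small Fo membrane subunits had 2643 bp over 5 genes. By signal the stalk genes led with a median of 71.1, against 60.0 for F1, 59.5 for the c ring and 64.8 for the membrane subunits. These groups hold 3 to 5 genes each, and no test was made between them.

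The strongest complex V promoters were Atp5b, the catalytic beta subunit, at 76.2 (69.5 in replicate 1 and 62.1 in replicate 2), and Atp5o, the stalk protein that ties the head to the stator, at 75.3 (68.3 and 63.7). The weakest was Atp5k, a small membrane subunit of the dimer interface, at 43.0. Its replicates were far apart, 29.8 and 55.9, so its low place rests on replicate 1, and on mm9 it had 22.4, above Atp5b at 16.2 and Atp5o at 21.4. Atp5d, the delta subunit of the central stalk, had 47.7 (43.1 and 41.2) at its 5′ end. A stronger peak of 60.2 lay inside the Atp5d gene, with its summit 3863 bp downstream, near RefSeq starts at 3577 and 3617 bp.

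The 3 genes for the c subunit of the proton-driven rotor, which encode the same mature protein, were all marked. Atp5g1 had 67.1 in the replicated list, with 43.5 in replicate 1 and 60.4 in replicate 2. Atp5g3 had 59.5, with 53.8 and 50.0, and its peak began 214 bp downstream of the 5′ end, toward a RefSeq start 1138 bp downstream. Atp5g2 had 49.0, with 40.1 and 46.6. The replicates disagreed on which of Atp5g1 and Atp5g3 was higher, while Atp5g2 was the lowest of the 3 in both. On mm9 the lowest was Atp5g3, at 13.6, against 15.1 at Atp5g2 and 18.9 at Atp5g1.

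Complex IV, cytochrome c oxidase, was the most uneven. Of its 20 genes, counted here with Ndufa4 and Ndufa4l2, 16 were marked, with a median of 55.1 and an interquartile range of 19.9 to 62.9. Without the 8 tissue isoforms, 10 of 12 were marked at a median of 60.2, with 53.0 and 51.3 in the replicates. The strongest were Cox4i1, the ubiquitous form of the subunit that binds ATP, at 75.2 (64.4 and 68.7), and Cox6c, a small membrane subunit, at 68.9 (60.2 and 61.4). On mm9 Cox4i1 had 15.2 and Cox6c 14.8. Both lay below Cox7b at 20.5 and Cox7c at 18.6, the weakest marked genes outside the isoforms on mm10 (41.3 and 40.1). The weakest were the isoforms Cox8b and Cox8c. The 2 unmarked genes outside the isoforms were Cox5a and Cox7a2.

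Cox5a, a subunit on the matrix side, had its nearest replicated peak 3058 bp from the 5′ end. A RefSeq start 3904 bp downstream had a signal of 66.1 in a domain of 4272 bp. Cox7a2, the ubiquitous liver-type form of subunit VIIa, had its nearest peak 10778 bp away and a signal of 70.7 at a RefSeq start 11569 bp downstream, in a domain of 2493 bp. Both values lie in the range of the marked genes. Both genes were also marked on mm9 at any annotated start, with 15.8 for Cox5a and 19.4 for Cox7a2 on the scale of that list.

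The 8 tissue isoforms stood apart from their ubiquitous counterparts with 1 exception. Of the 8, 6 were marked, a share not below the 66.6% of all coding genes, so what was low was the signal. The 6 marked isoforms had a median of 11.6, with 10.9 and 10.3 in the replicates, a mean of 10.6 ± 0.422 (SD, n = 2). The 6 marked counterparts had a median of 60.2 and 52.2 ± 1.15 in the replicates. The isoforms of heart and skeletal muscle, Cox6a2, Cox7a1 and Cox8b, were unmarked or weak.

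Cox8b, the heart and muscle form of subunit VIII, had 4.17 (4.65 in replicate 1 and 3.63 in replicate 2) in a domain of 629 bp, the narrowest of the 90. Its counterpart Cox8a had 60.5 (52.6 and 51.4), 14.5 times the signal. The difference within a replicate was 47.9 ± 0.137 (SD, n = 2). Cox8c, the testis form, had 7.05 (7.59 and 5.96) in 704 bp, and Cox8a exceeded it by 45.2 ± 0.291 within a replicate. Cox8a was thus above both other forms in each replicate, with no overlap.

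Cox7a1, the heart and muscle form of subunit VIIa, had 12.8 (12.7 and 10.6). At its RefSeq start the counterpart Cox7a2 had 5.53 times that signal. Cox6a2, the heart and muscle form of subunit VIa, had no replicated peak within 29975 bp, while Cox6a1 had 61.4 (58.2 and 51.3). Cox4i2, the lung form of subunit IV that is induced by low oxygen, had 10.5 (9.05 and 9.96), below Cox4i1 by 57.0 ± 2.40. Cox7b2, a testis form, had no peak within 22287 bp, where the nearest had a signal of 7.76. Its counterpart Cox7b, encoded on the X chromosome, had 41.3 (37.7 and 34.2).

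Cox6b2, the testis form of subunit VIb, was the exception. It had 67.3, with 59.2 in replicate 1 and 60.1 in replicate 2, and lay at percentile 90.8 of all marked genes. It exceeded the ubiquitous Cox6b1, at 60.0 (53.3 and 52.9), in both replicates. Within a replicate the value of Cox6b1 minus that of Cox6b2 was -6.56 ± 0.977 (SD, n = 2). The domain of 3305 bp at Cox6b2 covers its own 5′ end, and the nearest other coding start, that of the histone methyltransferase gene Kmt5c, lies 13002 bp away. On mm9 the order was the same, 22.7 for Cox6b2 and 17.6 for Cox6b1, and the other isoforms marked there all lay below their counterparts, with a median of 7.77 for the isoforms. All 5 testis markers were unmarked in the same list.

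Ndufa4l2, a hypoxia-induced relative of the complex IV subunit Ndufa4, had a weak peak in a wide domain. Its signal was 22.3, with 24.2 in replicate 1 and 15.4 in replicate 2, below Ndufa4 at 56.1 (50.7 and 50.3) by 30.7 ± 6.02 within a replicate. Its domain, chr10:127507374-127523022, was 15649 bp wide and joined 4 peaks. It also contains the start of Shmt2, the mitochondrial serine hydroxymethyltransferase, so the width is not that of Ndufa4l2 alone.

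**Figure D2:**
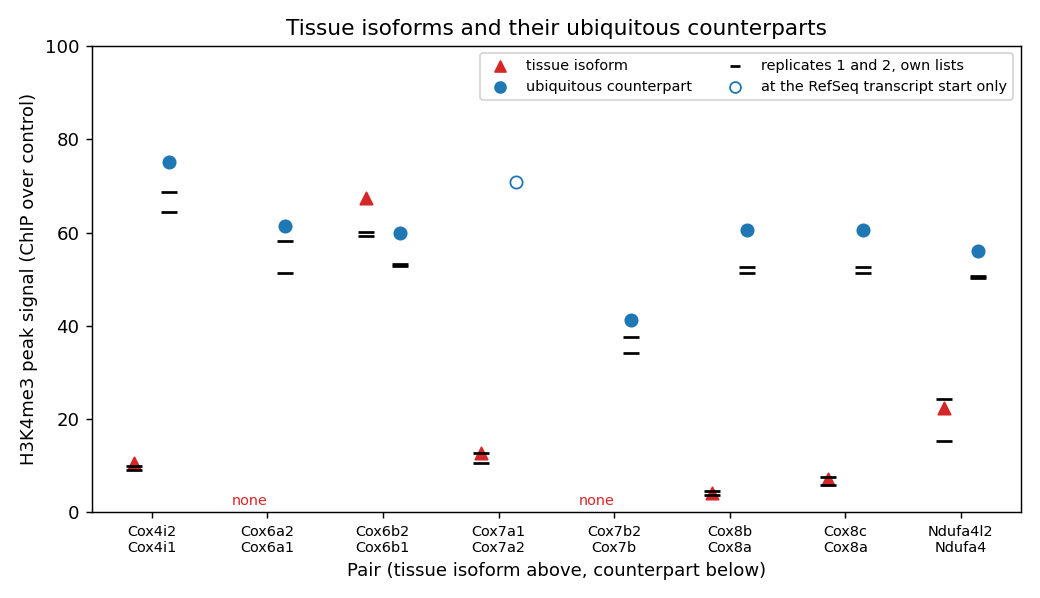
H3K4me3 signal (vertical axis, ratio of ChIP over control) of each tissue isoform (triangles) and its ubiquitous counterpart (circles) in the replicated list, with the values from the lists of replicates 1 and 2 as short bars. Cox6a2 and Cox7b2 have no peak, Cox7a2 is plotted at its RefSeq start only (70.7), and Cox6b2 at 67.3 is the isoform that lies above its counterpart.

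The sequence before the start also differed between the forms in the 3 pairs printed here. Capitals in the next 6 stretches, again the 150 bases before the RefSeq start, mark CpG dinucleotides, the target of DNA methylation and a feature of housekeeping promoters. They are shown for 3 pairs so that the isoform can be read against its counterpart.
Cox8b: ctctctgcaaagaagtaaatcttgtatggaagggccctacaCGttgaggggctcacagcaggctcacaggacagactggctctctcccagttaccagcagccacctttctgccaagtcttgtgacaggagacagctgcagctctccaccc
Cox8a: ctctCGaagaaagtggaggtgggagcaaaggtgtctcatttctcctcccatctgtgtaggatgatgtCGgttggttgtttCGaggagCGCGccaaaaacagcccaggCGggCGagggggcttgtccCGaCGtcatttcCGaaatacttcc
Cox7a1: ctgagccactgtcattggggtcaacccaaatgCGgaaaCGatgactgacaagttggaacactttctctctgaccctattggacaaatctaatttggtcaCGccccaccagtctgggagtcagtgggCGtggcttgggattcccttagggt
Cox7a2: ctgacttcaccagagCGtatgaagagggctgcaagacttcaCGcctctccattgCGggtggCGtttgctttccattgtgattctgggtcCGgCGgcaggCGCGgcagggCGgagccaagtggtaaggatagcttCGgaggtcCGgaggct
Cox6b2: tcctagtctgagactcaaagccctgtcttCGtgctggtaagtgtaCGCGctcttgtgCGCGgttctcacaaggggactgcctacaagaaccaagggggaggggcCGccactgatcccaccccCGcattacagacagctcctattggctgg
Cox6b1: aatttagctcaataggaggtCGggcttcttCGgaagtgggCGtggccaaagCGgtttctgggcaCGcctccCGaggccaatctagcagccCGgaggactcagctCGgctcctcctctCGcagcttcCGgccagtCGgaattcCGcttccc
They lie at Cox8b chr7:140900447-140900596 on the minus strand, Cox8a chr19:7217617-7217766 on the minus strand, Cox7a1 chr7:30184021-30184170 on the plus strand, Cox7a2 chr9:79759854-79760003 on the minus strand, Cox6b2 chr7:4753095-4753244 on the minus strand and Cox6b1 chr7:30626115-30626264 on the minus strand. Cox8b holds 1 CpG against 10 in Cox8a, Cox7a1 holds 4 against 11 in Cox7a2, and Cox6b2 holds 7 against 12 in Cox6b1. Cox6b2 therefore had fewer CpGs than its counterpart together with the higher signal.

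Over the whole 300 bp window, the ratio of observed to expected CpG had a median of 0.831 in the 78 genes with an entry. It was 0.577 over all promoters and 0.749 over the marked ones. The ratio was above 0.75 in 47 of the 78 (60.3%), against 34.0% of all and 49.7% of marked promoters. GC content was less apart, at 57.8% against 56.3% and 61.0%. The 4 tissue isoforms with an entry, Cox6b2, Cox7a1, Cox7b2 and Cox8b, had a median ratio of 0.382 and none of the 4 motifs. For Cox6b2 the ratio was 0.431. Cox7b2, whose pair is not printed, went the other way from the printed pairs. Its ratio was 0.564 with 10 CpGs, against 0.368 with 5 CpGs in its counterpart Cox7b. Across the 72 genes with a signal and a window at their 5′ end, Spearman's rho of CpG ratio and signal was 0.19. It was 0.466 across 10566 marked genes. These are descriptions across genes, which share libraries and are not independent replicates.

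Many oxidative phosphorylation genes started close to a coding gene on the other strand. Whether the 2 genes of a pair point away from each other or overlap was not checked. An opposite-strand coding 5′ end lay within 1 kb of 36 of the 96 genes, or 37.5%, against 10.8% of all coding genes. Among marked genes the shares were 40.0% and 15.8%. Within 300 bp there were 31 (32.3%), against 7.96%. The median distance of the 36 was 67 bp, from 9 to 966 bp, and 22 were within 100 bp. By complex, 21 were in complex I, 3 in II, 4 in III, 2 in IV and 6 in V, and none was a tissue isoform. All 36 were marked, and so were 97.1% of all coding genes with such a partner. In all 36 the strongest peak was the same one for both partners, so the signal cannot be divided between them. The windows of starts this close largely overlap, and no share over all coding genes is given here for a shared peak.

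The strongest of these shared promoters joined Ndufs1 to Eef1b2, a translation elongation factor gene 9 bp away. Ndufaf7 lay 36 bp from Cebpz, a gene of ribosome assembly. Cox4i1 lay 138 bp from Emc8, a subunit gene of a membrane protein insertase of the endoplasmic reticulum. Atp5pb, the b subunit of the peripheral stalk, lay 235 bp from Wdr77, and Uqcrq lay 57 bp from Gdf9, an oocyte growth factor gene. Several partners were themselves mitochondrial. Sdhd lay 52 bp from Timm8b, an import chaperone gene, and Ndufs6 lay 21 bp from Mrpl36, a mitochondrial ribosome gene. Ndufb5 lay 302 bp from another such gene, Mrpl47. Atp5j, a stalk subunit, lay 966 bp from Gabpa, which encodes the DNA-binding subunit of GABP.

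The position of the summit, the highest point of the strongest peak, differed between genes with and without such a partner. In the 54 marked genes without such a partner the median summit was 259.5 bp downstream of the 5′ end, and it was downstream in 53 of them (98.1%). The exception was the core complex I gene Ndufs8, at -498 bp. In the 36 with a partner it was downstream in 17 (47.2%), with a median of -251.5 bp. No summit of these 36 lay between -247 bp, at Ndufa1, and 180 bp, at Ndufa8. All marked coding genes showed 90.7% downstream without a partner and 54.9% with one. Since the partners of the 36 genes share the peak, a summit downstream of a gene can lie upstream of its partner. The shares with a partner therefore depend on the layout of the pair. Domains reached a median of 1492.5 bp upstream with a partner and 792 bp without, while the downstream reach was 1687.5 and 1703.5 bp. All marked coding genes had a similar pattern, with 1502 and 639 bp upstream and 1490.5 and 1543 bp downstream. The marked genes with a partner had a median signal of 62.4, against 60.1 without one, and a width of 3275.5 against 2426 bp. Over all marked genes the signals were 56.9 and 39.4, a larger gap, and the widths were 3098 and 2278 bp, a similar one.

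**Figure D3:**
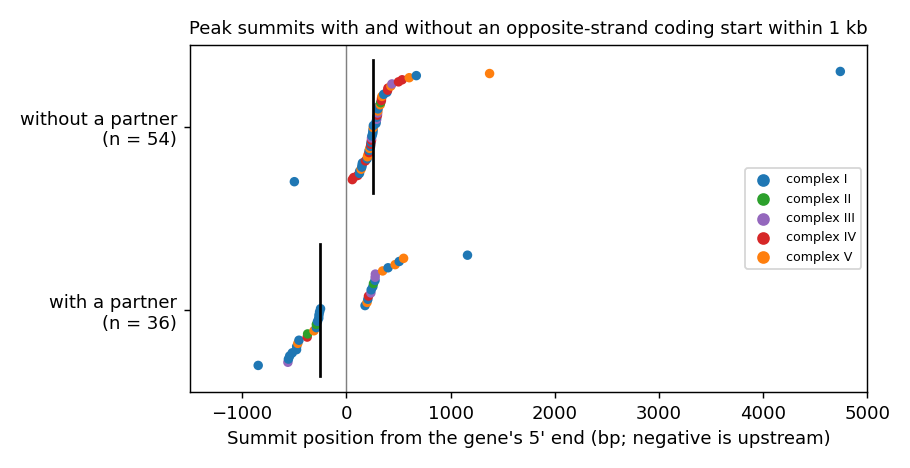
Distance of the peak summit from the gene's 5′ end (horizontal axis, bp, negative is upstream) for the 54 marked genes without and the 36 with an opposite-strand coding start within 1 kb, coloured by complex. Vertical bars are medians (259.5 and -251.5 bp), and vertical order within a row is by position only.

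Domain widths ranged from 629 to 20860 bp. Of the 90 genes, 4 were in the broadest 5.0% of marked genes: Atp5d, Ndufa4l2, Ndufa7 and Cox4i1. Each of these domains held another coding start. That of Atp5d, chr10:80136122-80156981, was 20860 bp wide, joined 6 peaks and held the starts of Cbarp and Midn. It was 7853 bp in replicate 1 and 18436 bp in replicate 2, so its extent was far from the same in both. Ndufa7, an accessory complex I subunit, lay in a domain of 11389 bp (11102 and 12411) with the ribosomal protein gene Rps28. Cox4i1 had 9242 bp (9625 and 8234) with Emc8.

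The fifth widest, at Ndufb10, an accessory complex I subunit, was 6984 bp (6907 and 6914) with Rnf151 and the ribosomal protein gene Rps2. Its strongest summit lay 4740 bp downstream, beyond the promoter window, so its signal of 60.2 is that of a peak that reaches the window with its summit outside it. The narrowest domains were those of Cox8b, Cox8c and Cox4i2 (1311 bp), followed by Ndufc1 (1414 bp) and Ndufc2 (1488 bp), both accessory complex I subunits. Narrow did not mean weak in these last 2, which had signals of 68.7 and 62.9. A single peak made up the domain in 68 of the 90 genes (75.6%, against 71.3% of all marked genes).

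**Figure D4:**
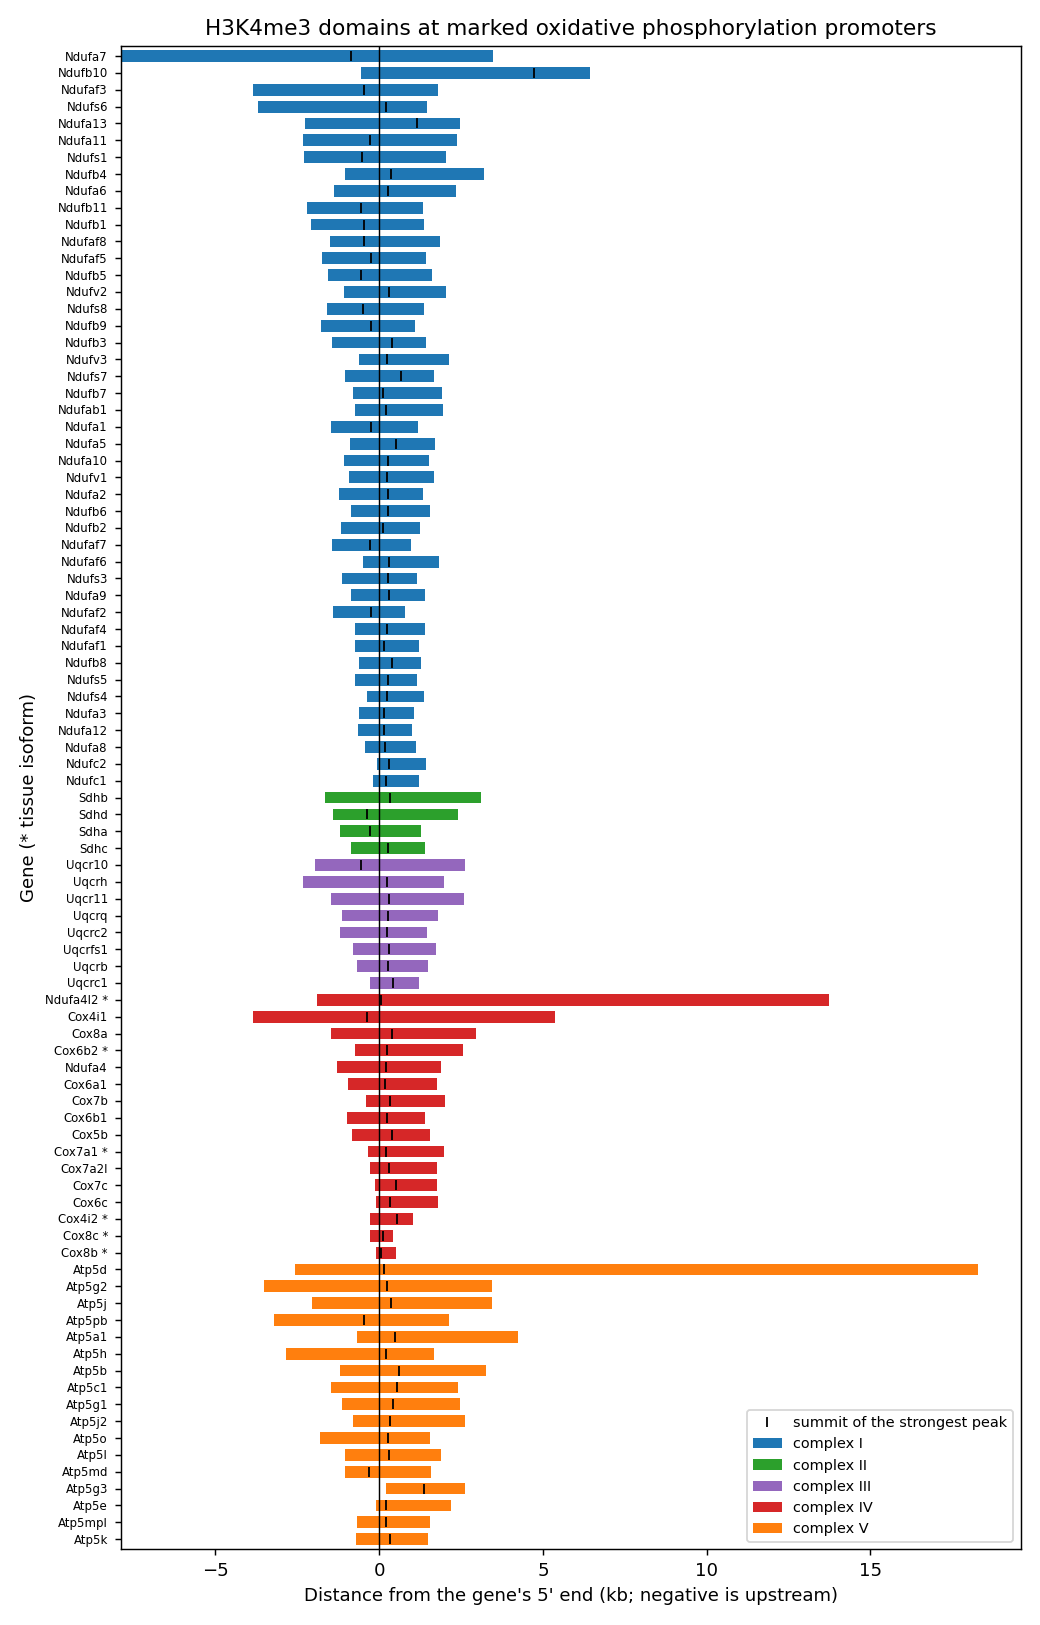
Extent of the H3K4me3 domain at 89 of the 90 marked genes (horizontal axis, kb from the 5′ end, negative is upstream), sorted by width within a complex, with a tick at the summit and an asterisk on tissue isoforms. Of the 90 domains, 70 reach farther downstream than upstream (77.8%, against 80.8% of all marked coding genes). The 2 longest are those of Atp5d (20860 bp) and Ndufa4l2 (15649 bp).

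The replicates gave the genes similar values. Signal was higher in replicate 1 in 58 of the 90, and the higher of the 2 values was a median of 1.07 times the lower, against 1.08 over 14211 coding genes. The ratio exceeded 1.25 in 10 genes (11.1%, against 13.6% of all) and 1.5 in 2, Atp5k (1.88) and Ndufa4l2 (1.58). Across the 90 genes Spearman's rho between replicates was 0.78 and Pearson's r 0.896, given as a description across genes. Widths differed by more than 1.5 times in 9 genes: Cox8b, Cox8c, Cox7a1, Atp5g2, Ndufb7, Ndufs6, Atp5d, Cox6b1 and Cox7c.

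**Figure D5:**
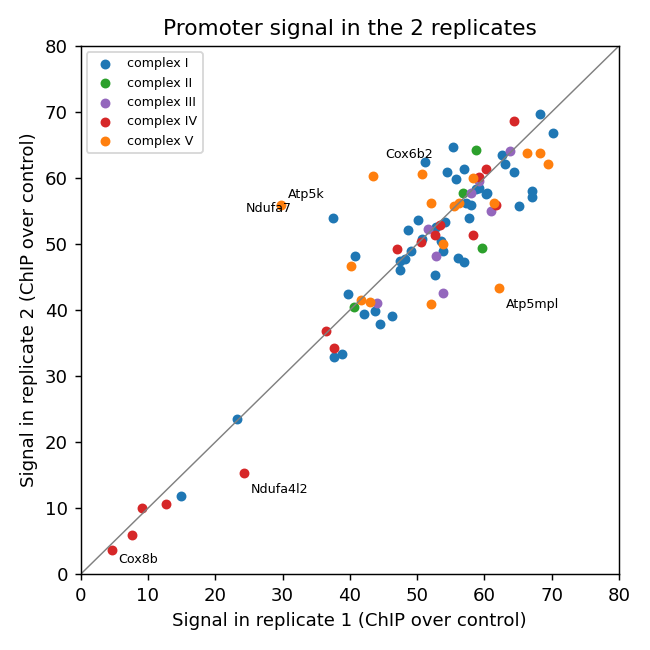
Signal of the 90 marked genes in replicate 1 (horizontal axis) and replicate 2 (vertical axis), each from its own list as a ratio of ChIP over control, coloured by complex, with the line of equal values. Atp5k (29.8 and 55.9) lies farthest above the line in proportion, and the weak isoforms form the group near the origin.

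Only Ndufa1, Ndufb11 and Cox7b of the 96 genes are on the X chromosome, of which a male line has a single copy. All 3 were marked, at 26.2, 41.3 (38.9 and 33.4) and 41.3, and none reached the median of all marked genes. Their median of 41.3 was 0.672 of the autosomal oxidative phosphorylation genes' median of 61.4. Over all marked coding genes the X median was 24.2 and the autosomal one 43.9, a ratio of 0.551. The mm9 list turned the direction. There Ndufa1 had 32.1, Ndufb11 28.3 and Cox7b 20.5, a median of 28.3 against 17.5 for the autosomal genes, and over all marked coding genes the X median was 25.7 against 15.8. The cause of this reversal between lists was not tested.

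The other genes of the pathway were taken from 3 lists that are not part of the symbol rule. Of 14 genes for cytochrome c, cytochrome c1 and coenzyme Q synthesis, 13 were marked at a median of 57.7. The share was 92.9%, against 66.6% of all coding genes. Cyc1, the cytochrome c1 of complex III, had 77.4 (70.2 and 64.9), and Cycs, the somatic cytochrome c, had 61.0 (45.5 and 56.7). Cyct, the testis cytochrome c, had 31.8 (28.4 and 27.5), below Cycs in both replicates but well above Cox8b and Cox8c. Among the coenzyme Q enzymes, the hydroxylase gene Coq6 was highest at 77.5 (67.8 and 70.0), and the hydroxylase gene Coq7 lowest at 31.6, with 34.3 and 19.1. The kinase-like gene Coq8a, at 36.2 with 30.1 and 34.5, was below Coq7 in replicate 1, so the lowest place of Coq7 rests on replicate 2. The methyltransferase gene Coq5 had 73.9 and the lipid-binding Coq9 72.0. Pdss1 had 60.4, Coq8b 57.7, Coq4 54.8, Coq2 53.9 and Coq3 44.6. Pdss2, a side-chain synthase subunit, was unmarked at its 5′ end and had 67.7 at a RefSeq start.

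Of 37 further assembly factors, 36 were marked, or 97.3%, against 66.6% of all coding genes. Their median was 53.7, from 29.8 at Uqcc1, a complex III factor, to 80.4 at Sco1, a copper chaperone of complex IV. Atpaf2, an F1 assembly factor, was unmarked at its 5′ end and had 61.0 at a RefSeq start.

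Of 12 regulators of mitochondrial gene expression, 11 were marked, or 91.7%, against 66.6% of all coding genes. The median signal of the 11 was 51.0 and their median width 3899 bp, against 43.0 and 2426 bp over all marked genes. The regulators' median width was above that of the oxidative phosphorylation genes, 2718.5 bp, while their median signal was lower. Pprc1, a coactivator of the PGC1 family, had 78.2 (68.5 and 69.4). The other coactivators differed, with 53.2 (50.2 and 45.3) at Ppargc1b and 30.8 (30.3 and 26.2) at Ppargc1a, which encodes the form induced in muscle and brown fat. The value of Ppargc1a is that of its 5′ end only, since no peak lay within 1 kb of a RefSeq start of the gene. On mm9, at any annotated start, Ppargc1a had 3.54. Gabpa had 67.6 (58.3 and 60.0) from the peak it shares with Atp5j, and Gabpb1, its partner subunit, had 56.2 at a RefSeq start only. Yy1 had 56.4 and Nrf1 51.0. Tfam, which packages and transcribes mitochondrial DNA, had 55.1. Polrmt, the mitochondrial RNA polymerase gene, had 43.6. The methyltransferase-like factors Tfb2m and Tfb1m had 49.3 and 38.0. Esrra, a nuclear receptor of this programme, was among the lowest at 32.1 (32.1 and 25.6).

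Pseudogenes with the same symbol stems offered a comparison with copies of these genes. Of 19 such pseudogenes, 3 had a replicated peak within 1 kb of either end and 16 had none. The 3 are to be read against 8.74% of all 10429 pseudogenes under the same rule. Atp5l2-ps had a signal of 71.1, with 54.2 in replicate 1 and 63.7 in replicate 2, and the start of the splicing factor gene Cwc25 lies 1404 bp from it. Ndufa11b had 8.91, with 9.54 and 6.74, and the nearest coding start is 44255 bp away. Ndufs5-ps had 3.59, with 3.42 and 3.89, and the nearest coding start is 79891 bp away. The last 2 are annotated as transcribed. How far such copies share reads with their parent genes was not tested.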

How the data were processed

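H3K4me3 ChIP-seq peaks of 2 biological replicates of 1 cell line were analysed, all in 1 group. The authors deposited 4 narrowPeak lists on mm10 and 3 broadPeak lists on mm9. The signal deposited by the authors is a ratio for each peak. On mm10 it is ChIP over control, per the deposited file descriptions, and on mm9 the sources used here do not state the denominator. The deposited mm10 lists hold the −log10 of a p-value and a q-value, and the deposited mm9 lists the p-value and q-value themselves. The deposited display score was not used. Aligner, caller and depth were likewise not given in the sources used here. An unmarked promoter is one at which nothing passed the authors' threshold.

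All main values come from the replicated list on mm10. Its 62128 peaks are all in the pooled list with the same values, so its signal is that of the pooled replicates. Genes came from the GRCm38.p6 RefSeq table. Strand was taken from the RefSeq promoter table for 17491 genes and from GENCODE vM1 for 4041, and 351 without a strand were left out. A gene was marked when a peak overlapped the window from 1 kb before to 1 kb after its 5′ end. Its signal was the highest there, and its width that of the widest domain after joining peaks under 1 kb apart. Lists were described by counts and medians beside all coding genes, with no test. Scripts ran in Python 3.11.15 with pandas 2.3.3, numpy 2.4.6 and scipy 1.17.1, and were checked on simulated data.

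The genes and lists were chosen with earlier results of these data known. Named were all tissue isoforms and counterparts, all unmarked genes, the 2 strongest and 2 weakest per complex, the 5 widest and 5 narrowest domains, the succinate dehydrogenase and c subunit genes, up to 5 shared promoters, and the regulator, cytochrome c and coenzyme Q lists. A gene that this rule takes is counted but not reported by name here. Other genes named with shared promoters, printed sequences or in the assembly list were chosen after their values were seen. The alternatives tried were the list of either replicate, the pooled and mm9 lists, a stricter q-value (1e-05), other window sizes (500 bp, 2 kb) and joining distances, and structural subunits alone.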

Additional observations from a re-analysis of the deposited data

How the results depend on the processing

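The number of marked genes was 89 to 92 of 96 under the alternatives that kept all genes, and 81 of 87 with structural subunits alone. The median signal of 61.0 was 52.7 without replicate 1 and 53.7 without replicate 2, 17.6 on the scale of the mm9 list and 60.2 with structural subunits alone. The median width of 2718.5 bp was 2613.5 bp without replicate 2 and 2684 bp without replicate 1, 2945 bp in the pooled list, 3800 bp on the mm9 grid, 2621.5 bp with no joining and 2925.5 bp with joining under 3 kb. The median difference between counterparts and tissue isoforms, 53.5, was 45.0 without replicate 2 and 45.4 without replicate 1, 8.60 on mm9, and 54.9 with any RefSeq start. It is taken over pairs with both genes marked, and Cox8a enters with Cox8b and again with Cox8c. The pairs of Cox6a2 and Cox7b2 are left out, since these isoforms have no peak. Cox7a1 and Cox7a2 enter only on mm9 and with any RefSeq start, so the settings do not hold the same pairs. Any RefSeq start and a partner distance of 300 bp were chosen after seeing the data. Group directions kept were those of signal and width against all marked genes and of isoforms against counterparts. The X-linked genes were below the autosomal ones on mm10 (0.672) and above them on mm9 (medians of 28.3 and 17.5). Single-gene orders in each of the complexes I to V also turned on mm9. Lists differ in scale, and beyond that the cause of these shifts was not tested. No paired analysis was possible because there was 1 group. The main limits are the unknown depth, the use of 1 annotated 5′ end per gene, and shared peaks at close opposite-strand starts, where a signal belongs to both genes.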
